A study of Mus musculus with 12 samples.

Results

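RNA of primary melanocytes labelled ATF2-/- and kept without 4-OHT was compared with RNA of WT (ATF2+/+) melanocytes, both in normoxia, on 4 of the 12 arrays of the study, with 2 arrays per group. The members of the comparison are the 13461 probes that were above background (detection p under 0.01) on at least 1 of these 4 arrays and were not named for a gene on X or Y, out of 46628 probes on the array. The study asked what ATF2 does in melanocytes of a melanoma model. Its other arrays hold both kinds of culture after 12 h at 1% O2, and mutant cultures with 4-OHT in both conditions.

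The cultures came from the dorsal-lateral skin of newborn mice whose strain is labelled FVB/129/OlaHsd/C57Bl/6. Both groups compared carried a Cre recombinase fused to an estrogen receptor and driven by the melanocyte promoter of tyrosinase, an activated Nras transgene that doxycycline switches on, and deletion of Ink4a. By the labels both had received doxycycline and no 4-OHT, although the methods name both drugs for the cultures on the arrays. The mutant mice also carried Atf2 alleles in which the exons needed to bind DNA and to dimerize are flanked by loxP sites. Cre cuts only with 4-OHT, the active form of tamoxifen, so by design these mutant cultures should still have held those exons in spite of the label. Fibroblasts were to be removed with geneticin, and the medium held TPA, a cAMP analogue and α-MSH. The paper mentions both biological and technical replicates, but neither it nor the labels say which the 2 arrays of 1 group are. The p-values therefore measure only the spread between arrays of a group, pooled over the 6 groups of the study. That spread may be technical.

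Melanocytes are pigment cells that arise from the neural crest and make melanin in melanosomes, through enzymes such as tyrosinase and dopachrome tautomerase. ATF2 is a basic leucine zipper factor that binds CRE and AP-1 sites with partners of the JUN family and is activated by stress kinases. Skeletal muscle, in contrast, is defined by sarcomere proteins, calcium release channels and, before innervation is complete, by acetylcholine receptors that hold the gamma subunit.

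The label of the cells was checked against melanocyte markers first. Of 10 listed genes of melanin synthesis and the melanosome with a named probe, 8 exceeded background on every array of the comparison. The summed intensity of the list was 35147 and 45656 arbitrary units on the mutant arrays and 34188 and 42335 on the WT arrays. Dct, dopachrome tautomerase, lay at 12800 and 17166 in the mutant and at 13210 and 14038 in WT. Its log2 fold change was 0.09 (standard error 0.17, adjusted p = 0.787), and the groups overlapped. The highest intensity of any probe was 13986 and 18033 on the mutant arrays and 13807 and 17429 on the WT arrays. Dct thus lay near the top of the scale, where a difference may be understated. Most of the summed intensity came from Dct, Gpnmb and Cd63, the brightest genes of the list. Probes could not be named for Tyr, Tyrp1, Pmel or Mitf, which were not analysed here.

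The groups also differed by sex. Xist, the RNA that silences 1 X chromosome in females, lay at 189 and 506 in the mutant and was not above background in WT (32.3 and 43.3), at least 10.5-fold higher. Eif2s3y, a gene of the Y chromosome, lay at 264 and 277 in WT and was not above background in the mutant (25.6 and 33.3), at least 8.14-fold lower. Genotype and sex therefore cannot be told apart in any value below. The Atf2 probe was not above background on any array, so the allele could not be checked. Probes for Cre, rtTA and tTA, the transgenes that the model needs, were not above background on any array either, and what they can detect was not tested. A probe for NeoR, neomycin resistance, lay at 1639 and 2518 in the mutant and 981 and 1317 in WT (0.69, adjusted p = 0.21). Nras was at 58.0 and 86.9 in the mutant and 56.0 and 78.7 in WT (log2 fold change -0.03, adjusted p = 0.952). The 4 arrays had median intensities of 29.2 to 37.7 and 11332 to 12699 probes above background. Normalized log2 values correlated at 0.994 between the WT arrays, 0.976 between the mutant arrays and 0.917 to 0.934 between mutant and WT arrays. The mutant arrays were at least 2-fold apart at 282 probes and the WT arrays at 3, so the mutant pair is the less alike. In the arrays as in any bulk sample, fewer cells of a type and less RNA per cell cannot be told apart.

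At an adjusted p under 0.05 in limma, 1193 probes (8.86% of those tested) were higher in the mutant, and 882 (6.55%) had lower values there. All of these 2075 probes had the same sign on both slides, each of which held 1 array of either group. Passing the test on these same arrays all but ensures this, so it is no separate support. A change of at least 2-fold was seen for 1002 of them and of at least 4-fold for 263, of which 246 were higher and 17 were lower. The large differences thus lay mostly on the side of higher RNA in the mutant. The median over all probes was -0.07 on the log2 scale. Both mutant arrays but neither WT array were above background at 574 probes, against 253 probes for the reverse, and 10180 probes were above background on all 4 arrays. The counts rest on every array. Without mutant replicate 1 there were 781 higher and 350 lower probes, without mutant replicate 2 914 and 628, without WT replicate 1 658 and 259, and without WT replicate 2 687 and 232.

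A gene name could be given to 29.8% of the probes compared. Each named gene is described by its brightest probe. Among 3615 named autosomal genes, 340 (9.41%) were higher and 173 (4.79%) had lower values in the mutant. In all of these calls the 2 groups did not overlap, which a call on the same arrays all but ensures. The median over all named genes was 0.01. Without mutant replicate 1 there were 207 higher and 85 lower genes, without WT replicate 1 194 and 54, and without WT replicate 2 190 and 53.

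**Figure D1:**
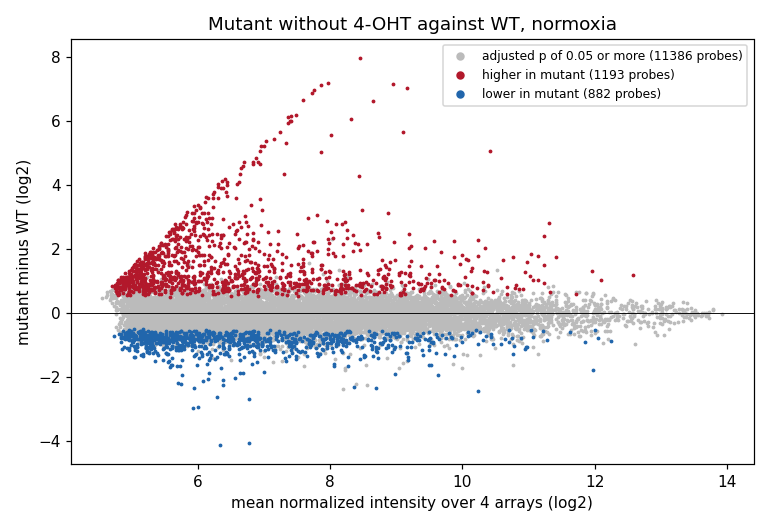
Log2 fold change between mutant cultures without 4-OHT and WT cultures in normoxia (y axis) against the mean normalized log2 intensity over the 4 arrays (x axis), with 1 point per probe. The 1193 probes called higher are red, the 882 called lower are blue and the other 11386 are grey, and the differences of at least 4-fold are mostly red (246 of 263). The red probes on the left edge lie along a line because the WT arrays are at background there.

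The most marked differences were in genes of skeletal muscle. Chrna1 encodes the receptor subunit of muscle that binds acetylcholine. It lay at 2305 and 3560 on the mutant arrays and at 22.5 and 30.8 on the WT arrays, which is background. It was at least 98.9-fold higher in the mutant (adjusted p = 5.68e-09). Chrng, which encodes the gamma subunit of fetal receptors, lay at 2124 and 2679 in the mutant and at a background of 22.5 and 30.0 in WT. It was at least 83.7-fold higher (adjusted p = 5.5e-09). Where a gene was above background in only 1 group, such a lower bound is given in place of the fold, computed against the higher of the gene's own level and the dimmest level measured above background on each array. Both subunits are assembled into the same receptor. A second, dimmer probe of Chrna1 was above background on 1 of the mutant arrays only and did not pass (log2 fold change 1.10, adjusted p = 0.0552).

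The promoters of these 2 genes, which were high on the same arrays of the study, are given from RefSeq (GRCm38.p6, from 250 bases before to 50 bases after the start of the gene) with the E-box letters CANNTG in capitals. E-boxes are bound by basic helix-loop-helix factors, among them the muscle factors, and CAGCTG is 1 form of them. The Chrna1 window, chr2:73580289-73580588 on the minus strand, holds 3 of them, and the Chrng window, chr1:87205561-87205860 on the plus strand, holds 3 as well. In both windows 2 of the 3 read CAGCTG.
Chrna1: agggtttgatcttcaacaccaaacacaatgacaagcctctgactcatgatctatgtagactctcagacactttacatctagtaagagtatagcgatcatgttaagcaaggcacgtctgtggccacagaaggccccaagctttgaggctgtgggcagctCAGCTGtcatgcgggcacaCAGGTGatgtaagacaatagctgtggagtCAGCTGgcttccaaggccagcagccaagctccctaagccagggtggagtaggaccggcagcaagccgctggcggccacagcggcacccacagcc
Chrng: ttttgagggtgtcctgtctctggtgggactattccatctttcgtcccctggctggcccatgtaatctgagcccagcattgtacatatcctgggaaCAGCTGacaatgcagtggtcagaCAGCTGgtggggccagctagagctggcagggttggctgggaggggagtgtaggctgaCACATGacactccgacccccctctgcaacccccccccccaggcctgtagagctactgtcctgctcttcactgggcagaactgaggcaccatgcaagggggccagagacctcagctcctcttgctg
Of the 11 muscle genes tested 8 had a promoter sequence, and CAGCTG was found in 4 of these 8, in Casq1, Chrna1, Chrng and Eno3. It was found in 16.1% of all 27025 promoters and in 14.1% of the 2933 promoters of the genes tested. CANNTG was in 6 of the 8 and in 72.1% and 61.4% of those sets. Both motifs read the same on either strand, and every CAGCTG is also a CANNTG. The narrower CAGCTG was not among the motifs planned, and the muscle list was written with results of these data known. These shares are therefore a description only. A match describes letters in the window and not a site in use.

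The sarcomere and calcium genes went the same way. Myh7, the slow or beta myosin heavy chain, lay at 1281 and 1539 in the mutant against a background of 22.6 and 38.6 in WT, at least 48.8-fold higher (adjusted p = 9.68e-07). Actn3, the actinin of fast muscle fibres, lay at 193 and 200 against a background of 34.8 and 42.1, at least 6.45-fold higher (adjusted p = 0.000125). Ryr1, the calcium release channel of the sarcoplasmic reticulum, lay at 210 and 340 against a background of 24.9 and 29.2, at least 8.98-fold higher (adjusted p = 2.21e-07). Casq1, calsequestrin, which stores calcium in the same compartment, lay at 59.8 and 77.8 against a background of 25.0 and 34.1, at least 1.86-fold higher (adjusted p = 0.000334).
Flnc, the filamin of striated muscle, was also measurable in WT, on 1 of the 2 arrays. It lay at 1142 and 1688 in the mutant and at 45.3 and 64.7 in WT, a difference of 5.01 on the log2 scale (adjusted p = 4.07e-08). No array of the mutant came near a WT array for this gene.
Enzymes of muscle were higher too. Car3, the carbonic anhydrase of slow fibres, lay at 380 and 675 against a background of 28.0 and 32.4, at least 17.5-fold higher (adjusted p = 1.74e-08). Its second probe, dimmer, did not pass (log2 fold change 1.02, adjusted p = 0.056). Eno3, the muscle enolase, lay at 569 and 1110 in the mutant and at 123 and 172 in WT (log2 fold change 2.44, standard error 0.16, adjusted p = 3.23e-06). Ncam1, an adhesion molecule of nerve and developing muscle, lay at 1064 and 1183 against 191 and 282 (2.20, standard error 0.25, adjusted p = 0.000168). Mef2c, a factor that acts with the myogenic factors, lay at 314 and 512 against 138 and 187 (1.28, standard error 0.17, adjusted p = 0.000598).

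Of 17 listed skeletal muscle genes with a named probe, 11 were tested and 11 were higher, with a median log2 fold change of 3.63 (3.17 with the bounded genes at their bound). All 11 were also higher with an offset of 50 in place of 16 (median 2.38) and with a wider estimate of the background, which keeps 5 bright probes of very low detection p (median 2.40). The list was written with results of these data known. In addition, 7 of the 11 passed the filter on background through the mutant arrays alone and so had to differ, and the other 6 (Mef2a, Mef2d, Musk, Ttn, Neb and Ckmt2) were not above background on any of the 4 arrays. Probes could not be named for Myod1, Myog, Des, Acta1 or Ckm, which were not analysed here. The sum of the list was 9819 and 13760 in the mutant and 839 and 1141 in WT, with 11 genes above background on each mutant array and 3 and 4 on the WT arrays.

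The other arrays of the study show where else these genes were high. On the mutant arrays in hypoxia, also without 4-OHT, Chrna1 lay at a background of 26.3 and 29.4 and Chrng at one of 22.8 and 32.7. With 4-OHT, Chrna1 lay at 1875 and 3511 in normoxia and at 2594 and 4868 in hypoxia. Chrng lay at 1358 and 1631 with 4-OHT in normoxia and at 2545 and 2356 in hypoxia. Both receptor genes were at background on the WT arrays in hypoxia (21.7 to 31.1). The mutant cultures without 4-OHT in hypoxia thus stood apart from the other mutant cultures. Summed over the list, intensity was 1428 and 1842 in these cultures, 8792 and 9704 with 4-OHT in normoxia, 10013 and 12874 with 4-OHT in hypoxia, and 924 and 1190 in WT in hypoxia. The part of skeletal muscle cells in the cultures was not tested.

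**Figure D2:**
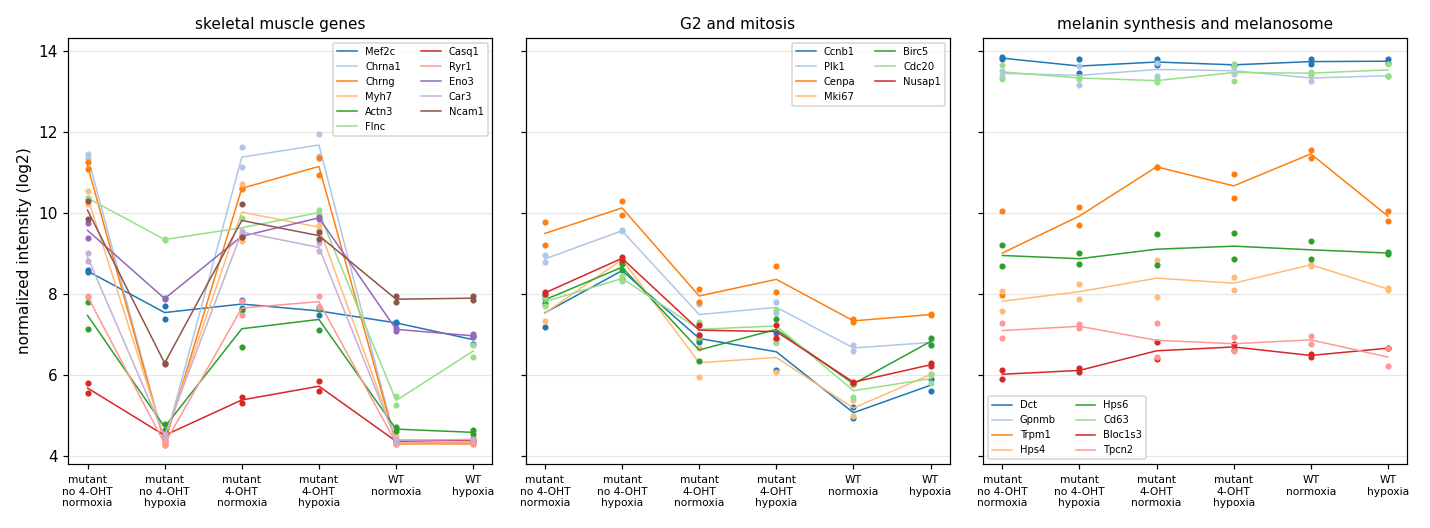
Normalized log2 intensity (y axis) of the tested genes of skeletal muscle, of G2 and mitosis, and of melanin synthesis and the melanosome in the 6 groups of cultures (x axis). Points are arrays and lines join group means. The muscle genes Chrna1 and Chrng are above 10 in the mutant groups other than the mutant without 4-OHT in hypoxia and below 5 there and in WT, whereas Dct is above 13 in all groups.

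The remaining large rises covered several kinds of genes, and 13 of the 15 largest had no WT array above background. Neurl1a, a ubiquitin ligase related to Drosophila neuralized, lay at 913 and 1233 against a background of 31.6 and 48.1, at least 35.8-fold higher (adjusted p = 7.83e-08). Pdrg1 lay at 440 and 646 against a background of 24.4 and 36.0, at least 18.3-fold higher (adjusted p = 1.03e-07). Unlike most of the others, Pdrg1 was as high in the mutant in hypoxia, at 465 and 554. Ank1, an ankyrin that anchors membrane proteins in red cells and muscle, was at least 11.8-fold higher (adjusted p = 3.65e-06). Fndc5, the precursor of irisin, a factor released by muscle, was at least 7.21-fold higher (adjusted p = 5.28e-06), and its second probe at least 7.53-fold (adjusted p = 1.3e-06). Vcam1, an adhesion molecule bound by integrins, lay at 280 and 521 against a background of 44.5 and 51.4, at least 10.4-fold higher (adjusted p = 4.49e-07). Reln, reelin, a matrix protein that guides neurons, lay at 179 and 226 against a background of 32.9 and 36.1, at least 6.65-fold higher (adjusted p = 6.09e-05).

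Imprinted genes, which are read from the allele of 1 parent, were higher in 2 of 7 tested members, with a median of -0.03. Mest, which is read from the paternal allele, lay at 561 and 639 in the mutant against a background of 31.3 and 37.8 in WT, at least 20.6-fold higher (adjusted p = 3.03e-07). Peg3, a zinc finger gene also read from the paternal allele, lay at 402 and 602 against 90.8 and 130 (log2 fold change 2.21, adjusted p = 6.97e-05). The other 5, Dlk1, Snrpn, Gnas, Impact and Dcn, did not pass.

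**Figure D3:**
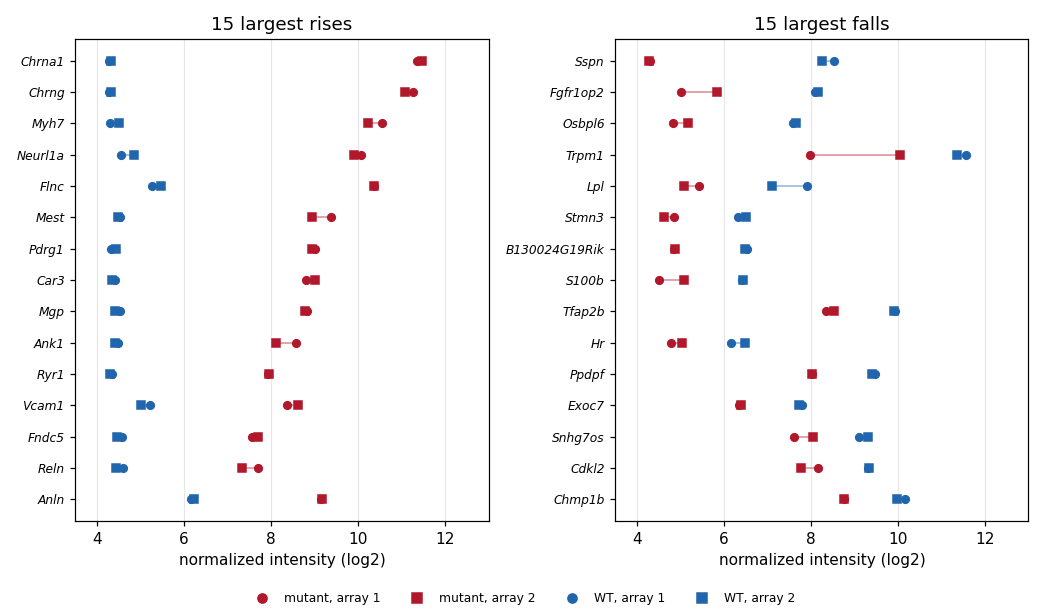
Normalized log2 intensity (x axis) of the 15 named autosomal genes with the largest rises (left) and the 15 with the largest falls (right) on the 4 arrays compared, red for mutant and blue for WT, with a circle for array 1 and a square for array 2. The 2 groups are separate for every gene, and the mutant arrays are widest apart for Trpm1.

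Genes of fibroblasts and the matrix differed in both directions, with 7 of 12 tested genes higher and 1 lower and a median log2 fold change of 0.99. Of the 12, 5 were above background in only 1 of the groups and passed the filter through that group alone, and with the wider background estimate the median was 0.31, with 5 higher. Loxl1, which cross-links elastin, lay at 171 and 265 against a background of 33.4 and 51.7, at least 6.48-fold higher (adjusted p = 2.24e-06). Col6a1, a chain of the collagen VI around cells, was at least 4.00-fold higher (adjusted p = 9.54e-05), while Col6a3, another chain of it, was not above background in the mutant and was at least 1.34-fold lower (adjusted p = 0.000917). The matrix protein fibulin 2 (Fbln2) was at least 3.38-fold higher, and S100a4, a calcium-binding protein of motile mesenchymal cells, at least 2.77-fold (adjusted p = 0.000168 and 0.0232). S100a4 did not pass without WT replicate 1, WT replicate 2 or mutant replicate 2. Col5a1, Thbs2 and Serpinf1 were the other 3 higher members. The sum of the list was 8042 and 9827 in the mutant, with 11 genes above background on either array, and 4411 and 5797 in WT, with 8, and the part of fibroblasts in it was not tested. Without either WT array, or with the authors' normalized values, 4 were higher. The defining collagens Col1a1, Col1a2, Col3a1 and Col5a2 as well as Postn and Thbs1 were not above background on any of the 4 arrays, and Dcn, decorin, did not differ past the test (log2 fold change -0.11, adjusted p = 0.685). Mgp, an inhibitor of calcification made by cartilage and vessels, was at least 16.2-fold higher (adjusted p = 3.23e-06).

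Of 12 TGF-beta and BMP pathway genes tested, 5 were higher and 1 was lower, with a median of 0.40. Of the 12, 3 were above background in only 1 of the groups and passed the filter through that group alone. Among the ligands, Tgfb2 lay at 181 and 348 against a background of 37.2 and 52.1, at least 7.60-fold higher (adjusted p = 2.57e-06), and Tgfb3 rose by 1.57 on the log2 scale (adjusted p = 0.00406). Fst, follistatin, which traps activin, was at least 4.84-fold higher (adjusted p = 1.29e-05). Ltbp1 and Ltbp2, which tether latent TGF-beta to the matrix, were higher by 0.95 and by at least 2.67-fold. Id3, a target of BMP signals that blocks helix-loop-helix factors, was lower (log2 fold change -0.96, adjusted p = 0.0145). None of the receptors and Smads tested (Tgfbr1, Tgfbr3, Bmpr1a, Acvr1 and Smad4) passed. Id3 did not pass whichever of the 4 arrays was left out, and without WT replicate 2 only 3 genes were higher.

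Contractile genes of smooth muscle were less uniform, with 2 of 5 higher and 1 lower, and 1 of 5 higher whichever of the 4 arrays was left out. Acta2, smooth muscle actin, lay at 187 and 274 against a background of 35.7 and 45.3, at least 7.55-fold higher (adjusted p = 2.99e-05). Tpm4, a tropomyosin of many cells, rose by 0.78 (adjusted p = 0.0277), but its second probe did not pass (-0.02, adjusted p = 0.947), and the first did not pass whichever of the 4 arrays was left out. Mylk, myosin light chain kinase, was lower, at 369 and 473 against 712 and 803 (-1.05, adjusted p = 0.00806), but did not pass without WT replicate 1 or mutant replicate 2.

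RNA of dividing cells was higher in the mutant. Of 15 G2 and mitosis genes with a named probe 7 were tested and 7 were higher, with a median log2 fold change of 2.20. With the wider background estimate 6 were higher, without Ccnb1, and the median was 0.75. The sum of the list was 2335 and 3130 in the mutant and 690 and 938 in WT. Plk1, a kinase of mitotic entry, lay at 422 and 580 against 90.1 and 132 (log2 fold change 2.20, standard error 0.20, adjusted p = 2.99e-05). Mki67, the Ki-67 protein of dividing cells, lay at 183 and 224 against 40.1 and 61.5 (2.35, standard error 0.29, adjusted p = 0.000255). Nusap1, a spindle protein, lay at 221 and 358 against 60 and 77.3 (2.21, standard error 0.17, adjusted p = 8.49e-06). The groups did not overlap for these genes or for Cenpa, Birc5 and Cdc20, which were higher by 2.16, 2.08 and 2.20. Anln, anillin, which acts in the cleavage furrow, lay at 475 and 750 against 71.9 and 97.6 (2.96, standard error 0.19, adjusted p = 2.58e-06).

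Ccnb1, cyclin B1, the partner of CDK1 in mitosis, lay at 131 and 325 in the mutant against a background of 39.0 and 56.4 in WT, at least 5.54-fold higher (adjusted p = 0.00038). Its promoter window, chr13:100786437-100786736 on the minus strand (RefSeq, GRCm38.p6), is given since mitosis genes share CCAAT boxes there, the letters bound by the factor NF-Y, and it holds 2 of them, in capitals.
Ccnb1: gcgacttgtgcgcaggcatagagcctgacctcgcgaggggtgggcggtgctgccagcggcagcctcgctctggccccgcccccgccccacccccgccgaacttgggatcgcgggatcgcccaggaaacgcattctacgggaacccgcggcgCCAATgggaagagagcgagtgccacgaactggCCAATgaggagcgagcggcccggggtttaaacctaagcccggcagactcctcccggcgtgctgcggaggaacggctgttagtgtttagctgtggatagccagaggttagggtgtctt
CCAAT on either strand was found in 5 of 7 promoters of the mitosis genes tested (Ccnb1, Cdc20, Cenpa, Mki67 and Plk1), in 37.9% of all promoters and in 38.1% of those of the genes tested. This motif was chosen after the mitosis genes had been seen to differ.

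Of 11 S phase and replication genes tested 7 were higher and 0 were lower, with a median of 0.91. Of the 11, 4 were above background in only 1 of the groups and passed the filter through that group alone, and with the wider background estimate 6 were higher and the median was 0.36. Rrm2, a subunit of ribonucleotide reductase, lay at 203 and 216 against a background of 43.2 and 54.2, at least 5.44-fold higher (adjusted p = 5.58e-05). Uhrf1, which keeps DNA methylation after replication, lay at 425 and 813 against 101 and 142 (2.32, adjusted p = 1.29e-05). Tk1, Cdc6, Fen1, Mcm7 and Rfc5 were the other 5. Of the 4 cell cycle regulators tested 2 were higher. Ccnd1, cyclin D1, which drives exit from G1, lay at 2795 and 3980 against 1219 and 1791 (1.03, standard error 0.19, adjusted p = 0.00437), and its other 2 probes were higher as well (0.91 and 0.99). With 4-OHT in normoxia these other 2 probes went the other way against WT. Their log2 fold changes there were -1.17 (adjusted p = 0.000517) and -0.39 (adjusted p = 0.139). The paper reported cyclin D1 as lower than in WT, for melanocytes in which ATF2 had been inactivated. Cdkn1a, the CDK inhibitor p21, lay at 1849 and 2372 against 690 and 811 (1.32, standard error 0.27, adjusted p = 0.00806), and its second probe was higher by 1.39. The first probe of Ccnd1 did not pass without WT replicate 1, nor that of Cdkn1a without mutant replicate 1 or WT replicate 2. The probe for the p16 transcript of Cdkn2a lay at 130 and 192 against 205 and 250 and did not pass (-0.72, adjusted p = 0.371). It was above background on all 4 arrays, although both groups are described as lacking Ink4a, and the part of the locus that it covers is not known.

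The gene that was most reduced among those named was Sspn, sarcospan, a part of the dystrophin complex. It lay at a background of 23.9 and 27.8 in the mutant and at 308 and 343 in WT, at least 9.87-fold lower (adjusted p = 4.07e-08). It was at background on all other mutant arrays too (21.9 to 37.0) and at 566 and 758 in WT in hypoxia. Fgfr1op2, a gene 0.65 Mb from the start of Sspn, lay at 43.1 and 91.6 against 228 and 322 (log2 fold change -2.69, standard error 0.28, adjusted p = 7.94e-05), but its second probe, at 73.1 and 107 against 90.1 and 127, did not pass (-0.48, adjusted p = 0.0913). Within 5 Mb of Sspn, Ldhb, Dennd5b and Etfbkmt were also lower, by -0.98, -0.90 and -0.81, of which the last 2 did not pass without either WT array. Dennd5b also did not pass without mutant replicate 2, nor Etfbkmt without mutant replicate 1.

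Trpm1, melastatin, an ion channel of melanocytes that MITF is known to induce, had the most uneven fall. It lay at 215 and 1356 in the mutant and at 2387 and 2742 in WT (log2 fold change -2.45, standard error 0.50, adjusted p = 0.00739). The difference was -3.60 on slide 1 and -1.31 on slide 2. It did not pass without WT replicate 1 (adjusted p = 0.0636) or with no filter on background (adjusted p = 0.069). The other pigment genes tested did not pass, and the median over the 8 was -0.05. Gpnmb, a melanosome glycoprotein, lay at 10038 and 13190 against 8004 and 11888 (0.12, adjusted p = 0.754), with overlapping groups.

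Of 4 melanocyte transcription factors and receptors tested only Tfap2b passed. This AP-2 factor of the neural crest lay at 275 and 490 against 770 and 1012 (-1.48, standard error 0.18, adjusted p = 0.000262), and its second probe was lower as well (-1.11, adjusted p = 0.00784). Sox5, Tfap2a and Zeb2 did not pass. S100b, a calcium-binding protein of Schwann cells and melanocytes, lay at a background of 32.5 and 59.1 against 81.8 and 110, at least 2.22-fold lower (adjusted p = 0.00303).

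Further falls were smaller, and 6 of the 15 largest had no mutant array above background. Osbpl6, a lipid-binding protein, was above background on 1 mutant array and lay at 39.5 and 62.1 against 168 and 234 (-2.62, adjusted p = 5.9e-06), and its second probe was at least 2.42-fold lower (adjusted p = 0.00117). Lpl, lipoprotein lipase, was at least 4.71-fold lower (adjusted p = 0.00215). Stmn3, a microtubule regulator of neurons, was at least 2.51-fold lower, B130024G19Rik at least 2.54-fold, and Hr, the corepressor mutated in hairless mice, at least 2.11-fold (adjusted p = 7.92e-05, 0.00012 and 0.000743). Ppdpf (-1.41), Exoc7 of the exocyst (-1.39), Snhg7os (-1.38), the kinase Cdkl2 (-1.36) and Chmp1b of the ESCRT machinery (-1.31) made up the rest. The fall of Ppdpf did not pass without WT replicate 1 (adjusted p = 0.0561).

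Signalling lists held a few calls each. Among RAS and MAPK genes, the ETS factor Etv1 was higher (1.03, adjusted p = 0.00985), and the kinase Mapk3 was lower (-0.71, adjusted p = 0.0116), though its second probe did not pass (-0.44, adjusted p = 0.127). Neither gene passed without WT replicate 1, WT replicate 2 or mutant replicate 2. Of 5 ATF2 and AP-1 family genes, Fosl2 was higher (0.94, adjusted p = 0.0354). Maf (-1.02, adjusted p = 0.00145) and Atf7, the closest relative of ATF2 (-0.62, adjusted p = 0.0406), were lower. Fosl2 and Atf7 did not pass whichever of the 4 arrays was left out, while Maf did. Junb, a partner of ATF2, lay at 131 and 228 against 190 and 252 and did not pass (-0.51, adjusted p = 0.103). The CRE motif TGACGTCA, which reads the same on both strands, was in 11 of 268 promoters of higher genes (4.10%) and 1 of 134 of lower genes (0.746%), against 3.75% of the genes tested and 1.88% of all promoters. It was in 0 of the 8 promoters of muscle genes.

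Secreted protease inhibitors were among the brighter rises. Of 6 complement, serpin and acute phase genes tested 3 were higher. Serpina3n, an inhibitor induced in acute phase, lay at 2441 and 3095 against 433 and 620 (2.26, standard error 0.18, adjusted p = 1.01e-05). Serpinf1, the PEDF that blocks vessel growth, lay at 3531 and 3502 against 1441 and 1853 (0.92, adjusted p = 0.0423), and Serpine2 at 712 and 845 against 283 and 478 (0.96, adjusted p = 0.00734). Without mutant replicate 1 or WT replicate 1 only 1 of these passed.
Of 9 stress genes 4 were higher, namely the small heat shock protein Hspb1 (401 and 445 against 101 and 125, log2 fold change 1.93, adjusted p = 0.000302), Xbp1, Srxn1 and Gclm, of which Gclm did not pass whichever of the 4 arrays was left out. The dimmer probes of Srxn1 did not pass (log2 fold change 0.39, adjusted p = 0.216, and 0.72, adjusted p = 0.134). Of 13 HIF targets and glycolysis genes only Egln3, the oxygen-sensing prolyl hydroxylase PHD3, was higher. It lay at 165 and 216 against a background of 27.0 and 39.5, at least 6.20-fold higher (adjusted p = 1.19e-06), and the median of the list was 0.21. Of 9 interferon and antigen presentation genes only Mx2 was lower (-1.03, adjusted p = 0.0271), with a list median of -0.40, and it did not pass whichever of the 4 arrays was left out. Of 13 genes of lipid synthesis Fdps, Acly and Cyp51 were higher by 0.71, 0.60 and 0.55, and none of them passed whichever of the 4 arrays was left out.

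Among 17 guidance and adhesion genes 5 were higher and 0 lower, and 3 of the 17 passed the filter on background through 1 group alone. The higher genes were Ncam1, the semaphorin receptor Plxna2, which was at least 5.37-fold higher (adjusted p = 2.42e-05), Sema6a, Ephb2 and Robo1. The list median was 0.02, and 3 genes were called without mutant replicate 1 or without either WT array. Of 5 integrin genes Itga6 (1.78, adjusted p = 0.000401) and Itgb4 (1.47, adjusted p = 0.00193), whose products pair as the laminin receptor of hemidesmosomes, were higher, and Ilk was lower (-0.56, adjusted p = 0.0327). The call of Ilk was lost whichever of the 4 arrays was left out. Of the keratinocyte markers tested Itga6 was thus higher, Krt17 was lower (-0.73, adjusted p = 0.0285) and Krt10 did not pass. Of the endothelial markers Emcn, endomucin, was at least 4.38-fold higher (adjusted p = 1.56e-05) and Eng, endoglin, was lower (-0.72, adjusted p = 0.0243). Krt17 did not pass without either mutant array or WT replicate 1, nor Eng without either WT array or mutant replicate 2. No myeloid marker (of 7) or mast cell marker (of 3) with a named probe was above background on any of the 4 arrays. Of the other lists, Igfbp3 and Igfbp4 were higher among 4 genes of the insulin-like growth factor axis, Nkd2 among 7 Wnt genes and Cxcl14 among 5 chemokines and cytokines. In the first and the last of these lists, 2 genes each passed the filter through 1 group alone. Sv2a was lower among 5 synaptic vesicle genes, and the 1 Notch gene tested did not pass. The calls of Nkd2 and Sv2a were lost whichever of the 4 arrays was left out, and that of Igfbp3 without either WT array or mutant replicate 2.

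The same contrast was then set beside that in hypoxia, which uses 4 other arrays in the same fit. There 375 of the 3615 named genes (10.4%) were higher and 383 (10.6%) had lower values in the mutant. Of the 340 genes higher in normoxia, 133 (39.1%) were higher in hypoxia too and 21 (6.18%) were lower. Of the 173 genes lower in normoxia, 63 (36.4%) were lower and 9 (5.20%) were higher. The median log2 fold change of the higher genes was 1.13 in normoxia and 0.36 in hypoxia, and that of the lower genes -0.83 and -0.37. The normoxia values chose these genes, so the smaller medians in hypoxia are a description. The difference between the 2 contrasts itself was past the threshold, with a higher value in normoxia, for 224 genes (6.20%) and with a lower value for 120 (3.32%). Among the genes higher in normoxia it was past the threshold for 132.

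The muscle genes and the mitosis genes went apart here. Of the 11 muscle genes 10 had a different contrast in the 2 conditions, with a median of 3.63 in normoxia and 0.09 in hypoxia. Of these 11, however, 7 passed the filter through the mutant arrays in normoxia alone, which favours a larger contrast there. The list was also written with results known, so this count is a description only. Of the 7 mitosis genes 7 were higher in hypoxia too, with a median of 2.64, and for 0 of them was the difference past the threshold. In hypoxia the summed intensity of the mitosis list was 3790 and 4921 in the mutant and 882 and 1173 in WT. Pdrg1 (at least 18.3-fold in normoxia, log2 fold change of 4.57 in hypoxia), Sspn, Tfap2b (-1.48 and -1.49) and Lpl likewise kept their direction.
Other genes changed sides. Serpina3n was higher in the mutant in normoxia (2.26) and lower in hypoxia (-2.76), where it lay at 290 and 366 against 1867 and 2541 in WT. The difference was 5.02 (adjusted p = 8.62e-07). Ncam1 was higher in normoxia and lower in hypoxia (2.20 and -1.60, difference 3.80, adjusted p = 8.11e-05), as were Thbs2 (1.05, which did not pass without mutant replicate 1 or either WT array, and -3.69), Itgb4 (1.47 and -1.83) and Egln3, a gene that hypoxia is known to induce, which had a log2 fold change of -0.85 in hypoxia. Slc24a4, a sodium-calcium exchanger, went the other way. It lay at 354 and 540 against 380 and 479 in normoxia (-0.12, adjusted p = 0.659) and at 530 and 788 against 131 and 155 in hypoxia (2.37), a difference of -2.49 (adjusted p = 3.71e-05).

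**Figure D4:**
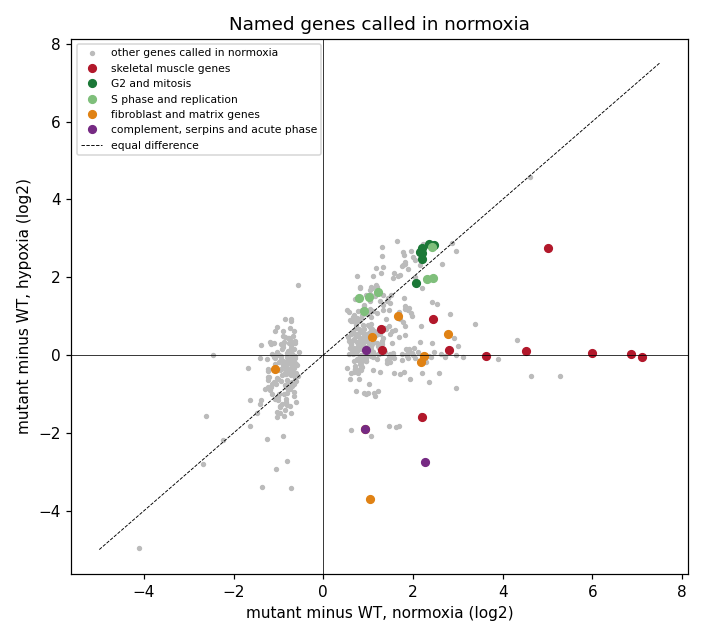
Log2 fold change between mutant cultures without 4-OHT and WT cultures in hypoxia (y axis) against that in normoxia (x axis) for the 513 named autosomal genes called in normoxia, with 5 gene lists in colour. Along the dashed line both contrasts are equal. The mitosis genes (dark green) lie near that line, most of the muscle genes (red) lie near 0 in hypoxia, and Serpina3n (purple) is at 2.26 and -2.76.

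Since the floxed allele lies on chromosome 2 and the mice are of mixed strain, the place of the called genes was counted. The share of named genes called ran from 8.21% on chromosome 9 to 20.1% on chromosome 13, with 18% on chromosome 2 and 14.2% over all autosomes. Within 10 Mb of Atf2, 9 of 25 tested genes were higher and 2 were lower (44.0%), against 14.0% of the 3590 genes elsewhere. Without 1 array the share was 24.0% to 32.0%, against 6.60% to 10.7% elsewhere. The higher genes were Chrna1, which starts 0.25 Mb from Atf2, Metap1d, Itga6, Cdca7, Hoxd4, Hoxd8, Phospho2, Nckap1 and Fam171b. Osbpl6 and Cers6 were lower. Cdca7 and Cers6 did not pass whichever of the 4 arrays was left out, and Phospho2, Nckap1 and Fam171b did not without either WT array. Phospho2 and Fam171b also did not pass without mutant replicate 1, nor Nckap1 without mutant replicate 2. Hoxd8 did not pass with the authors' normalized values (adjusted p = 0.0837). Metap1d, a mitochondrial methionine aminopeptidase, lay at 75.6 and 165 against a background of 33.6 and 39.4 and was higher in hypoxia as well (2.69, adjusted p = 4.83e-05). Hoxd8 and Hoxd4, patterning genes of 1 cluster, were at least 1.44-fold and 2.1-fold higher (adjusted p = 0.00151 and 0.000664) and were not so in hypoxia (0.01 and -0.02). Itga6 and Cdca7 were called higher in hypoxia too, and Osbpl6 lower. Chrna1 (-0.04), Cers6 (0.08), Phospho2 (-0.47), Nckap1 (-0.47) and Fam171b (0.02) were not called there. Ola1, Hnrnpa3, Ube2e3 and Frzb were called in hypoxia only. Genotype, strain of the linked DNA and sex cannot be told apart here.

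**Figure D5:**
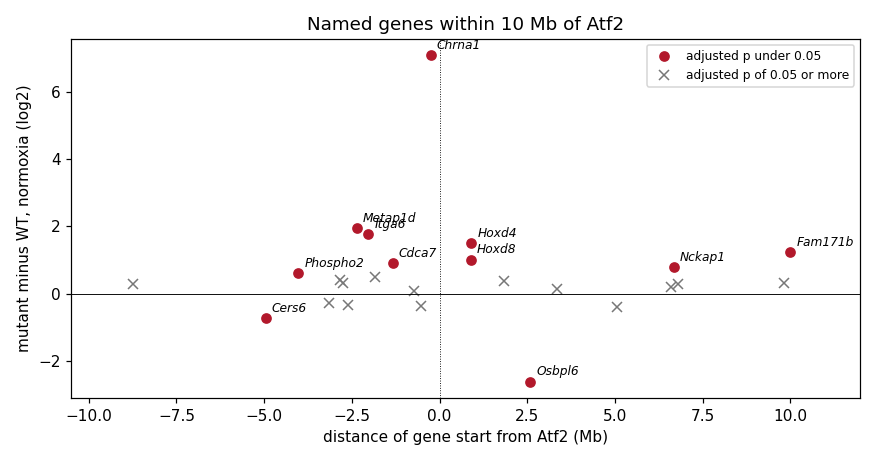
Log2 fold change between mutant cultures without 4-OHT and WT cultures in normoxia (y axis) for the 25 tested named genes within 10 Mb of Atf2, by distance of the gene's start from that of Atf2 in Mb (x axis). Filled circles are the 11 genes past the threshold (9 higher, 2 lower) and crosses the 14 others.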

How the data were processed

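Total RNA for the 12 arrays was amplified, labelled with biotin and Cy3 and hybridized by the authors to Illumina Mouse-6 BeadChips, with 1 colour per array. The authors derived the deposited non-normalized intensities, on a linear scale and with no background subtracted, and the deposited detection p-values against negative control beads in BeadStudio 3.0. A deposited table of intensities that the authors had background-subtracted and normalized by cubic spline was used only as an alternative, with values under 16 set to 16.

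The non-normalized intensities were background-corrected from the detection p-values, quantile normalized over all 12 arrays and taken as log2 with neqc (limma 3.58.1, R 4.3.3, offset 16). After normalization, 53 control probes were left out. For the background estimate, 5 bright probes whose detection p lay above 0 but under the smallest step (1 in 1603) were set aside, since they widen the background SD from 5.86 to 7.00 units to 100 to 178 units. Values printed per array are the non-normalized intensities, and the number of arrays limits their precision. A limma fit to 12 arrays in 6 groups (6 residual degrees of freedom) gave the contrast of the 2 groups by moderated tests, with Benjamini-Hochberg adjustment over 13580 probes above background on at least 1 of the 4 arrays and a threshold of 0.05. Each fold change is that of 2 against 2 arrays. Named X and Y genes (119 probes) were left out of all counts, while X and Y probes without a name could not be. For a gene not above background on both arrays of a group, a lower bound on the fold was computed from the mean of the brighter group and, per array of the dimmer group, the higher of the gene's value and the lowest value among probes above background.

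Of 46628 probes, 10777 (23.1%) were named, through a gene number in 11857 identifiers or through the RIKEN clone of 981. RefSeq held 82.6% of these numbers, and 46.0% of the same numbers raised by 1. Overlapping genes and near-identical copies cannot be told apart. Genes named are the 15 largest rises and 15 largest falls past the threshold without overlap, up to 4 examples for each of 30 gene lists with their defining markers, genes that check the labels or are named in the paper, and the 5 largest differences between normoxia and hypoxia in each direction. Values of 2 genes of this rule are not reported here. The members and lists were chosen with earlier results of these data known, and genes called added in the closing section were chosen after their values were seen.

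Same-numbered arrays share a slide. The deviations of same-numbered arrays from their group means correlated at 0.20 between the groups compared and at over 0.1 in 12 of 15 pairs of groups (-0.24 to 0.61). Since the slide is a shared batch, the fit with the slide as a block is an alternative. The steps were tested on simulated data for this comparison over 13580 probes. Calls were made for 2.99% of 67 probes with an added change of 0.5 (log2), for 47.8% of 67 with 1 and for 95.5% of 66 with 2. Of 103 calls in all, 6 were false (5.83%). The changed probes were all among the brighter ones and were far fewer than the probes called in the real data. The simulated noise was independent between arrays and held no slide effect. These rates may therefore differ from those of the real comparison. Alternatives were median scaling, an offset of 50, no background correction, the background estimate with the 5 probes, the authors' values, other filters, the mean of a gene's probes, fits to 4 or 8 arrays, an intensity trend, a threshold of 1e-06 on the unadjusted p, and each array left out in turn. Python 3.11.15 with pandas 2.3.3 was used for tables, and matplotlib 3.10.9 for figures.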

Additional observations from a re-analysis of the deposited data

Results flagged for a closer look

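These results are those in which the difference between mutant cultures without 4-OHT and WT cultures was itself different in normoxia and in hypoxia, by the interaction term of the limma fit at an adjusted p under 0.05, among the genes named by the rule. Each value is the log2 fold change in normoxia minus that in hypoxia. Where a gene was at background in WT or in the mutant, its size depends on the offset and is no bound. Over all probes the difference was higher in normoxia at 864 and lower at 725. No group of arrays is large enough for a test of single outlying arrays.

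The differences on the side of normoxia were those of genes high in the mutant in normoxia and at or near background in the mutant in hypoxia. They were 7.15 for Chrna1, 6.85 for Chrng, 5.95 for Myh7, 5.82 for Neurl1a, 5.17 for Mest, 4.44 for Car3, 4.00 for Ank1, 3.94 for Mgp, 3.66 for Ryr1, 3.16 for Fndc5 and 2.78 for Reln. Vcam1, with 2.59, and Flnc, with 2.25, stayed above background in the mutant in hypoxia, at 70.2 and 98.7 and at 573 and 779.

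Of the genes that were lower in the mutant, Cdkl2 (2.04) and Sspn (0.84) had a larger difference in hypoxia. Sspn was at background in the mutant in both conditions, so its value reflects the higher level of WT in hypoxia. A larger fall in normoxia was found for Osbpl6 (-1.06), Stmn3 (-1.35), Hr (-1.35), Snhg7os (-1.65) and Trpm1 (-2.46, adjusted p = 0.0487). Trpm1 lay at 729 and 1351 in the mutant and at 848 and 1259 in WT in hypoxia.

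The other differences were those of genes that did not pass in normoxia. Fbxw5, a subunit of a ubiquitin ligase, had the largest, 7.33 (standard error in normoxia 1.40, adjusted p = 0.0369), and its WT arrays in normoxia were far apart, at 27.1 and 718. Others were Bptf (-2.75), Vat1 (-2.59) and Slc24a4 (-2.49).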

How the results depend on the processing

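With the slide as a block (the paired analysis), 1399 probes were higher and 1204 lower, 404 and 240 named genes, and of the single values tested, 190 kept their call and 2 newly passed. Leaving out 1 array gave 658 to 914 probes higher and 232 to 628 lower, 190 to 265 and 53 to 126 named genes, 790 to 1296 probes with a different contrast in hypoxia, 369 to 575 with the same direction in both conditions and 51 to 107 with opposite ones, against 1193, 882, 340, 173, 1589, 769 and 141. With the 5 bright probes in the background estimate 792 probes were higher. A fit to the 4 arrays alone gave 1326 lower probes and 267 lower genes, and it cannot give the contrast in hypoxia. A fit to the 8 arrays without 4-OHT gave 1987 higher and 2189 lower probes, 594 and 452 genes, 3740 different, 1709 same and 466 opposite. At an unadjusted p under 1e-06 there were 199 and 12 probes, 49 and 2 genes, 101 different, 45 same and 3 opposite. With the bright probes the median of the tested muscle genes was 2.40 and that of the mitosis genes 0.75, against 3.63 and 2.20. Of the 30 genes with the largest rises and falls, Reln did not pass with the bright probes (0.65, adjusted p = 0.144). Other scalings put the median over probes at -0.06 and -0.08, against -0.07. Why the counts moved was not tested. With 2 arrays per group, changes of 1 on the log2 scale were recovered in 47.8% of simulated probes, all of them brighter ones.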

Other observations

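Some further genes, chosen after their values were seen, went with the groups described above. Of genes with a known place in striated muscle, Rbm20, a splicing factor of titin, was at least 5.13-fold higher in the mutant in normoxia (adjusted p = 0.00034), Alpk3 at least 5.10-fold (8.83e-05), Bves at least 4.95-fold (5.67e-06), Srl, sarcalumenin, at least 3.11-fold (0.000262), Mybpc1, a myosin-binding protein, at least 2.57-fold (0.000149) and Cmya5 at least 1.45-fold (0.00145). In hypoxia their log2 fold changes lay between -0.69 and 0.09 and none passed. Scx, scleraxis, a factor of tendon, lay at 148 and 233 against a background of 33.4 and 38.7, at least 6.10-fold higher, and was higher in hypoxia too (1.04, adjusted p = 0.00631). Nes, nestin, an intermediate filament of progenitor cells, lay at 242 and 487 against 51.9 and 89.1 (2.53, adjusted p = 1.95e-05). Sox11 was at least 3.47-fold higher (adjusted p = 0.000173), while Sox4, a close relative, was lower, at 1188 and 1793 against 2213 and 3268 (-1.06, adjusted p = 0.00502).

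Among the genes added for division, Foxm1, a factor of mitosis genes, was higher (1.12, adjusted p = 0.00136) and Clspn, claspin, at least 5.59-fold higher (adjusted p = 1.37e-05). Of 31 histone genes tested 10 were higher and 0 lower, with a median of 0.39. These genes share long stretches of sequence, so single members are uncertain. Of 63 genes of cytosolic ribosomal proteins 0 were called in either direction, with a median of 0.03 in the same fit. Of 4 Hox genes tested, Hoxa7 (at least 4.36-fold), Hoxd4 and Hoxd8 were higher, and Hoxb2 was not (0.00, adjusted p = 0.994).

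A few added genes were higher in the mutant in normoxia and lower in hypoxia. Dnajc6, auxilin, lay at 158 and 236 against 58.9 and 75.3 in normoxia (1.68) and at 40.1 and 49.7 against 110 and 147 in hypoxia (-1.83). Reck, an inhibitor of matrix proteases, had values of 1.06 and -2.08, Gja5, a gap junction protein, 1.63 and -1.84, Bcl3 0.93 and -1.89, and Prl2c2, whose close copies share sequence, 2.18 and -1.53. Nacc1 went the other way (-0.57 and 1.80). Atp1b1, the beta subunit of the sodium pump, was at least 5.98-fold higher in normoxia and higher by 2.87 in hypoxia. Apoe was lower in both (-0.85 and -1.41).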
